A study of Rattus norvegicus with 27 samples.

Results

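The hearts of rats that breathed filtered air for 3 months show which genes give strong and weak signals in an unexposed young adult rat heart, and how far 7 rats kept alike differ. These 7 hearts are the control group of a series of 27 hearts, the other 20 of which came from rats that inhaled coarse, fine or ultrafine ambient particles and enter here only where their spread is set beside that of the controls. They were chosen by title, as every sample labelled as filtered air. All rats were male, of the Fisher 344 strain, and 4 weeks old at the start. Each array is taken as 1 rat, since the labels number the controls from 1 to 7 and state no pooling. Total RNA of the heart was hybridised to Illumina rat bead arrays, on which each probe is a short oligonucleotide and its brightness rises with the amount of its transcript. The labels do not say whether atria, great vessels or surrounding fat were trimmed from the heart.

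Heart muscle contracts when calcium released from the sarcoplasmic reticulum binds troponin on the thin filament and lets myosin heads of the thick filament pull on actin. The pump SERCA2, encoded by Atp2a2, then returns the calcium to the reticulum. The adult heart pays for this work almost entirely by oxidative phosphorylation in densely packed mitochondria, fed mainly by fatty acids, and it uses a set of muscle or heart isoforms in place of those found in fetal heart, skeletal muscle or other tissues. Beside muscle cells the organ holds endothelial cells, fibroblasts, smooth muscle cells, macrophages, nerves and a covering of mesothelium and fat.

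The promoters of 6 genes are shown because they belong to the genes on which the description turns, the 4 markers of heart muscle with the brightest signals and the pair of atrial genes, Nppa and Myl7, that differed most between these hearts within the lists of muscle genes. Each is the RefSeq window of the GRCr8 assembly from 250 bases before to 50 bases after the annotated start, read 5′ to 3′ on the strand of the gene. Capitals mark matches on either strand to 4 motifs. The TATA box was searched as the hexamer TATAAA. The site of the GATA factors was searched as AGATAA, and the M-CAT site of the TEAD factors as CATTCC. The CArG box of serum response factor was searched by its usual consensus.
Atp2a2 (chr12:39733269-39733568, plus strand): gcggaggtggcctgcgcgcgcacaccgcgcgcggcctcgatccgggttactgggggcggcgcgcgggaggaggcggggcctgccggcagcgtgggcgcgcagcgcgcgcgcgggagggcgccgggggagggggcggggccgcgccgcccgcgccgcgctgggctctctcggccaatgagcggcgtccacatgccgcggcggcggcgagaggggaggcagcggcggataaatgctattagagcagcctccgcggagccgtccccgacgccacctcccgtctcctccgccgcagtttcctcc
Myl3 (chr8:119616844-119617143, plus strand): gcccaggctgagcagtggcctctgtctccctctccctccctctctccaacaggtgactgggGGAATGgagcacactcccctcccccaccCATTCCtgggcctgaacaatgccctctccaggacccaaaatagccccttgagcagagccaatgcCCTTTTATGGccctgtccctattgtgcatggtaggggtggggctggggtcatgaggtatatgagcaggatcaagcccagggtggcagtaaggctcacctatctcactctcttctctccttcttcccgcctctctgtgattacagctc
Tnnt2 (chr13:49818873-49819172, plus strand): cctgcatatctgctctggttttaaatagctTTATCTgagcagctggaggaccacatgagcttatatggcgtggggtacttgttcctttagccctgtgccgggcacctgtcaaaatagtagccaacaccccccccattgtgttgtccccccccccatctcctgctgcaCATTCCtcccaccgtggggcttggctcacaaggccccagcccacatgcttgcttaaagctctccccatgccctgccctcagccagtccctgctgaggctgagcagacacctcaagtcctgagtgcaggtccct
Tnni3 (chr1:78342321-78342620, plus strand): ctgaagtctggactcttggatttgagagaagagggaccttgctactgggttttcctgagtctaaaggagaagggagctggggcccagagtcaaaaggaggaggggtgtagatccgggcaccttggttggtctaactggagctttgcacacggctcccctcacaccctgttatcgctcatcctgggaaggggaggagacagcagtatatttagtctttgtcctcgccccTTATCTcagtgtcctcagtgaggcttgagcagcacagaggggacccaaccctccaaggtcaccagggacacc
Nppa (chr5:163711934-163712233, plus strand): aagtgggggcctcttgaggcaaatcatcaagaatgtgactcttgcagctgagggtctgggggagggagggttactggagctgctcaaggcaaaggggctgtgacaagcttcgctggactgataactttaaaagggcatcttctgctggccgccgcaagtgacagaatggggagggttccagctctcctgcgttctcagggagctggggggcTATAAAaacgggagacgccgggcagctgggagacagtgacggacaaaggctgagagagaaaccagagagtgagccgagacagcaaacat
Myl7 (chr14:84996575-84996874, minus strand): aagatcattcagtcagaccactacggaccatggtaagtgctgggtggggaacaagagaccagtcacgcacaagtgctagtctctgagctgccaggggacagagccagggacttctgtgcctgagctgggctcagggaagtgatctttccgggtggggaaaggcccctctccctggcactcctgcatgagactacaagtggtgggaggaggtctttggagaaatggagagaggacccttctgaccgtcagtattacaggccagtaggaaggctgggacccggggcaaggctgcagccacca
Positions count from the first transcribed base as +1, with no base 0, and give the leftmost base of a match. Myl3, the essential light chain of ventricular myosin, held an M-CAT match at -189 and another at -161 and a CArG box at -97. Tnnt2, cardiac troponin T, held a GATA match at -220 and an M-CAT match at -83. In Tnni3, cardiac troponin I, a GATA match lay at -22, and in Nppa, atrial natriuretic peptide, a TATA box lay at -39. Neither Atp2a2 nor Myl7, the atrial regulatory light chain, held any of the 4 motifs, which says only that these letters are not in the window. Over all 33469 RefSeq windows of this length, the TATA box was found in 14.2%, the GATA site in 11.6%, the M-CAT site in 14.2% and the CArG box in 1.64%. The E box CANNTG was also searched and is not capitalised, because 72.1% of windows hold it. No capitalised match overlapped another or an E box match. Of the 100 named genes with the brightest signals, 84 had a window, and 10 of these held a TATA box, 8 a GATA site, 9 an M-CAT site and 1 a CArG box, which is 11.9%, 9.52%, 10.7% and 1.19%. Among the 10707 named genes with a window on this array the same shares were 12.1%, 9.6%, 12.5% and 1.29%. A match is a description of the sequence and was not tested as a binding site.

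Levels are the deposited values, which are on a log2 scale and ran from 5.12 to 14.17, so a difference of 1 is a doubling if the scale is plain log2, which the sources used here do not settle. The table gives no detection call, and 1286 probes for olfactory, vomeronasal and trace amine receptors, which belong to sensory neurons of the nose, served as a measured floor. Their means over the 7 arrays had a median of 5.61, and the floor was set at their 95th percentile, 5.85. Of all 22226 probes, 10261 (46.2%) had a mean above it, for 7184 named genes. This share is the background for every count above the floor given below. The top 10% of probes by signal began at a level of 8.17, and the 100 brightest began at 12.51. A rank of signal is not a rank of transcript amount, because probes bind with different strength. Among 150 genes with several probes and the brightest above the floor, the second probe lay a median of 0.83 and at most 6.32 lower, and for 85 genes it lay at or below the floor. Actc1, cardiac actin, is a case in point, since its probe had a level of 7.17 ± 0.24 (SD, n = 7) and rank 4004 although actin is a main protein of the thin filament.

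The 7 arrays were alike, with correlations over all probes from 0.968 to 0.993 between pairs, and from 0.987 when filtered air 1 is left out. Filtered air 1 stood apart. Its mean over 13 measured T cell and thymocyte markers was 8.40, against 5.90 to 6.36 on the other 6 arrays. The means of the contractile and energy lists were lowest on filtered air 1, apart from that of the regulators of energy genes. The part of the T cell signal in those lower levels was not tested. Of these markers 11 were above the floor and 2, Rag2 and Cd5, were not. The median SD between arrays over all probes above the floor was 0.136, or 1.10-fold on a plain log2 scale, and 0.116 without filtered air 1. Within the 3 exposed groups the pooled median SD was 0.206 on 17 degrees of freedom. Counts and spreads that rest on filtered air 1 are given with and without it. In RNA from whole tissue, fewer cells of a type and less RNA per cell cannot be told apart, which holds for every list below.

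The brightest signals came from the sarcomere, the mitochondrion, iron and oxygen handling, and fat uptake. Atp2a2 ranked first of all probes, at 14.15 ± 0.05 (SD, n = 7). Its lowest value was 14.04, on filtered air 7, and on the other 6 arrays it sat at 14.17, the highest value that the normalized table holds, so its spread has a ceiling. Myl3 followed at 14.01 ± 0.05, Tnnt2 stood at rank 5 with 13.82 ± 0.11, and Tnni3 at rank 7 with 13.75 ± 0.10. The 4 markers of heart muscle were thus all among the 7 brightest probes, in a tissue labelled as heart. Between them stood Hba-a1, alpha globin, at 13.89, Fth1, the heavy chain of ferritin that stores iron, at 13.89, and Lpl, the lipoprotein lipase that frees fatty acids for uptake, at 13.80. The rest of the 20 brightest named probes were Tpm1, Atp5po, Atp5f1b, Myh7, Hbb, Ldhb, Slc25a4, Atp5mc1, Tpt1, Mb, Ckm, Myh6 and Atp5f1a, from 13.75 for Tpm1 down to 13.51 for Atp5f1a. Of the 100 brightest probes 69 carried a gene name.

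**Figure D1:**
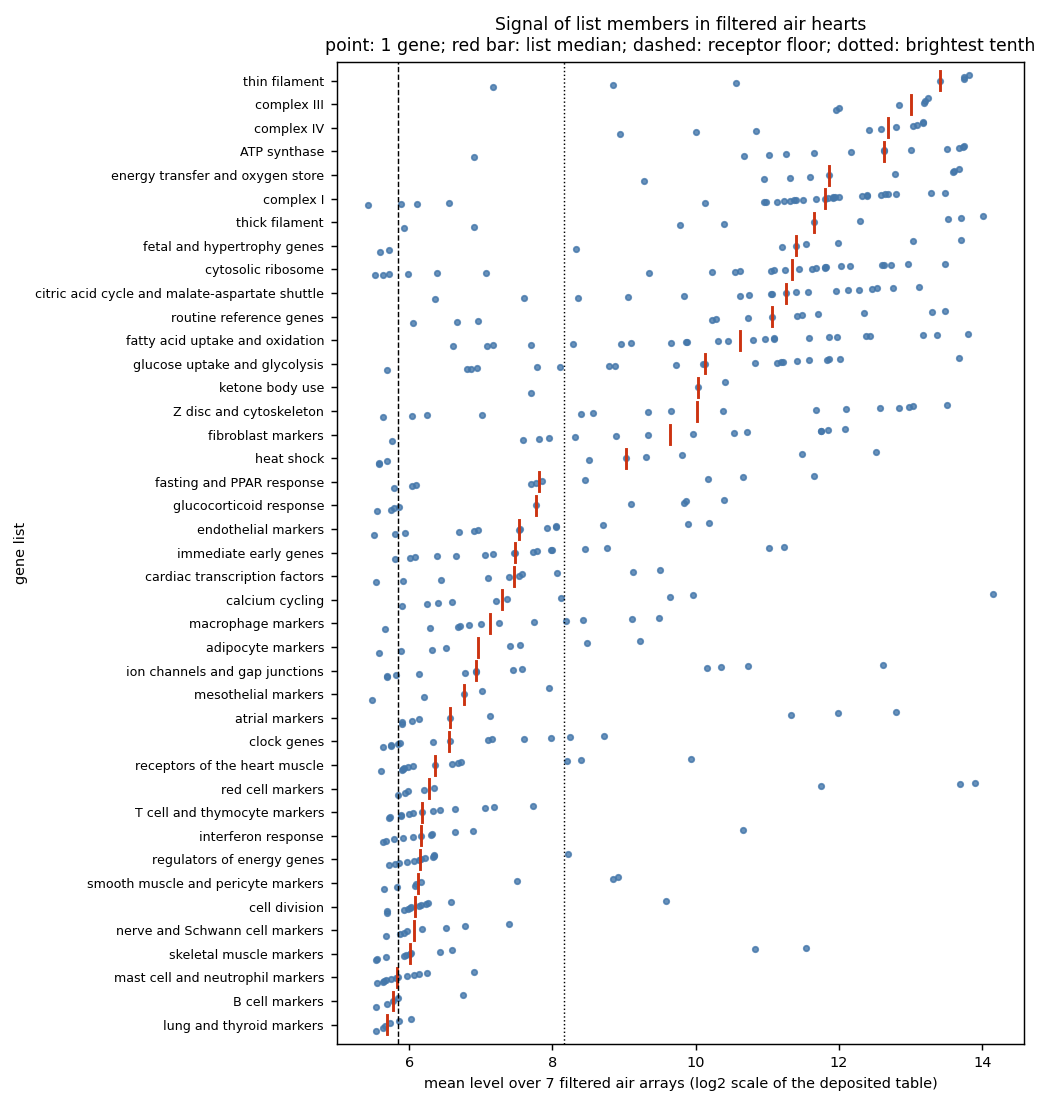
Mean level over the 7 filtered air arrays (horizontal axis, log2 scale) of each measured member of 41 gene lists (vertical axis), with a red bar at the median of the list, a dashed line at the receptor floor of 5.85 and a dotted line at 8.17, where the top 10% of probes begin. Filaments and the respiratory chain lie to the right, with medians of 13.40 for the thin filament and 13.01 for complex III, and lung and thyroid markers lie lowest, with a median of 5.70.

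All 9 measured genes of the thick filament were above the floor and 7 were in the top 10% of signals (10% of all probes by definition). Myh7, the beta myosin heavy chain, had a lowest level of 13.58, a median of 13.69 and a highest of 13.85. Myh6, the alpha heavy chain that dominates the adult rodent ventricle, had 13.39, 13.50 and 13.67. Both chains were thus near the top of the range on every array, and at that height neither level can be turned into an amount of message. The regulatory light chain of the ventricle, Myl2, lay at 12.30 ± 0.28 and myosin binding protein C, Mybpc3, at 11.65 ± 0.27. Mylk3, the kinase of the light chain, lay just above the floor at 5.93. Smpx, a small muscle protein, had the widest spread of the list, from 8.87 on filtered air 1 to 10.24 on filtered air 7, with a median of 9.90. The mean of the list was lowest on filtered air 1, at 10.61, and 10.89 to 11.03 on the others.

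The thin filament was as bright, with all 7 measured genes above the floor, 6 in the top 10% of signals and 4 among the 100 brightest, which hold 0.45% of all probes. Tpm1, tropomyosin, had a lowest level of 13.30, a median of 13.82 and a highest of 13.97, and filtered air 2 stood below the other 6 arrays. Tnnc1, the calcium-binding troponin of heart and slow muscle, had 13.10, 13.45 and 13.71, highest on filtered air 5. The capping protein Tmod1 lay at 10.56 ± 0.29 and the filament nucleator Lmod2 at 8.85 ± 0.26, both lowest on filtered air 1. The list mean ran from 11.45 on filtered air 1 to 11.70 on filtered air 7.

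Of 16 measured genes of the Z disc and cytoskeleton, 15 were above the floor and 12 in the top 10% of signals. The chaperone Cryab, at 13.50 ± 0.05, had a narrow spread. Desmin, Des, which ties Z discs together, lay at 12.83 ± 0.13, and alpha actinin 2, Actn2, at 12.57 ± 0.22. Ankrd1, a stress-responsive protein of the sarcomere, varied more, with a lowest level of 12.19 on filtered air 1, a median of 13.17 and a highest of 13.35. Synpo2l was the member below the floor, at 5.63.

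Calcium handling was less uniform in signal. All 10 measured genes were above the floor, but 3 were in the top 10% of signals, Atp2a2, the calcium-binding protein Hrc at 9.96 ± 0.18 and the channel subunit Cacna2d1 at 9.64 ± 0.22. Casq2, which stores calcium in the reticulum, lay at 8.12 ± 0.26. Triadin, Trdn, ran from 6.67 on filtered air 1 to 7.87 on filtered air 6 around a median of 7.39. Cacna1c, the pore of the L-type calcium channel, lay at 7.21 ± 0.23, and Slc8a1, the sodium-calcium exchanger, stood near the floor at 5.90 ± 0.09. Ryr2 and Pln had no named probe and were not analysed here.

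Among channels and gap junctions, 10 of 13 measured genes were above the floor and 4 in the top 10% of signals. Gja1, connexin 43, which couples ventricular muscle cells, was the brightest at 12.62 ± 0.15. It was followed by Fxyd1, phospholemman, a regulator of the sodium pump, at 10.72 ± 0.31, by the pump subunit Atp1b1 at 10.35 ± 0.23 and by Kcnip2, a partner of the channels that carry the transient outward current, at 10.15 ± 0.19. The pacemaker channel Hcn4, at 5.69, the inward rectifier Kcnj2, at 5.82, and Kcne1, at 5.69, did not rise above the floor. For 7 of the 10 genes above it the lowest array was filtered air 1, against 31.2% of all probes above the floor.

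Transcription factors of the heart gave middle to low signals, with 9 of 10 above the floor and 2 in the top 10% of signals. Hopx lay at 9.50 ± 0.35, Srf at 9.13 ± 0.20, Gata4 at 8.07 ± 0.22, Nkx2-5 at 7.53 ± 0.21 and Tbx20, at 5.54, below the floor. Of 13 receptors 12 were above the floor, led by the alpha adrenergic receptor Adra1b at 9.93 ± 0.21 and the thyroid hormone receptors Thra at 8.40 ± 0.21 and Thrb at 8.20 ± 0.25. Adrb1, the beta adrenergic receptor of the heart, lay at 5.61 ± 0.10, below the floor, which bears on this probe and not on the receptor.

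Fatty acid genes were bright and shared an order of arrays. All 24 measured were above the floor and 20 in the top 10% of signals. Fabp3, which carries fatty acids through the cytosol, had a lowest level of 12.90, a median of 13.33 and a highest of 13.79. Acadm, the medium-chain dehydrogenase of beta oxidation, had 11.57, 12.42 and 12.81, and Echs1, the enoyl hydratase, 10.20, 11.30 and 11.68. All 3 were lowest on filtered air 1, as were 22 of the 24, against 31.2% of all probes above the floor. The list mean was 9.91 there, 10.30 to 10.46 on filtered air 2 to 5, and 10.65 on both filtered air 6 and filtered air 7. Filtered air 7 had the highest level for 11 of the 24 genes and filtered air 6 for 7, against 17.3% and 15.4% of all probes above the floor. Without filtered air 1 the SD of the list mean fell from 0.253 to 0.147.

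The citric acid cycle showed the same order of arrays. Of 19 measured genes 17 were in the top 10% of signals. Also 17 of the 19 were lowest on filtered air 1, against 31.2% of all probes above the floor. Mdh1, the cytosolic malate dehydrogenase of the shuttle, lay at 13.12 ± 0.31 and Mdh2, its mitochondrial counterpart, at 12.76 ± 0.25. Sdhd, an anchor subunit of succinate dehydrogenase, was the most variable, from 10.65 on filtered air 1 to 12.23 on filtered air 6 with a median of 11.50. Ogdh, at 12.54 ± 0.09, was among the least variable. The list mean was 10.37 on filtered air 1 and highest, at 11.06 and 11.05, on filtered air 6 and filtered air 7.

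Most genes of the respiratory chain and ATP synthase were bright. In complex I, 28 of 29 measured genes were above the floor and 25 in the top 10% of signals, in complex III all 6, in complex IV all 10, and in ATP synthase 12 of 13. Ndufb9 of complex I lay at 13.48 ± 0.06, Uqcrb of complex III at 13.25 ± 0.05, Cox4i1 of complex IV at 13.17 ± 0.11 and Atp5po of ATP synthase at 13.74 ± 0.04. Within complex I the subunit Ndufs1 had the widest spread, running from 10.30 on filtered air 1 to 11.96 on filtered air 7, with a median of 11.00 and an SD of 0.58. The probe of Ndufs4 lay at 5.42, below the floor. The list means on filtered air 1 were 10.86 for complex I and 11.86 for ATP synthase, against 11.11 to 11.18 and 12.04 to 12.12 on the others.

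Energy transfer and glucose use were bright as well. All 9 genes of energy transfer and oxygen storage were in the top 10% of signals, among them Slc25a4, the ADP-ATP carrier of muscle, at 13.67 ± 0.10, Mb, myoglobin, at 13.60 ± 0.16, and Ckm, the creatine kinase of muscle, at 13.59 ± 0.05. For glucose uptake and glycolysis 20 of 21 were above the floor and 15 in the top 10% of signals. Gpi, at 11.84 ± 0.05, and Pygm, at 11.87 ± 0.07, hardly varied. Pdha1 and Pdhb, subunits of the enzyme that oxidises pyruvate inside the mitochondrion, ran from 10.43 to 11.67 and from 10.53 to 11.71. Both were lowest on filtered air 1 and highest on filtered air 7. The mean of the list varied little, with an SD of 0.078, and of 0.029 without filtered air 1. In contrast to the enzymes, 12 regulators of energy genes gave low signals, 10 above the floor and 1, Tfam, in the top 10% of signals at 8.22 ± 0.19. Ppargc1a lay at 6.33 ± 0.16 and Ppara at 5.85 ± 0.06, the latter level with the floor.

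**Figure D2:**
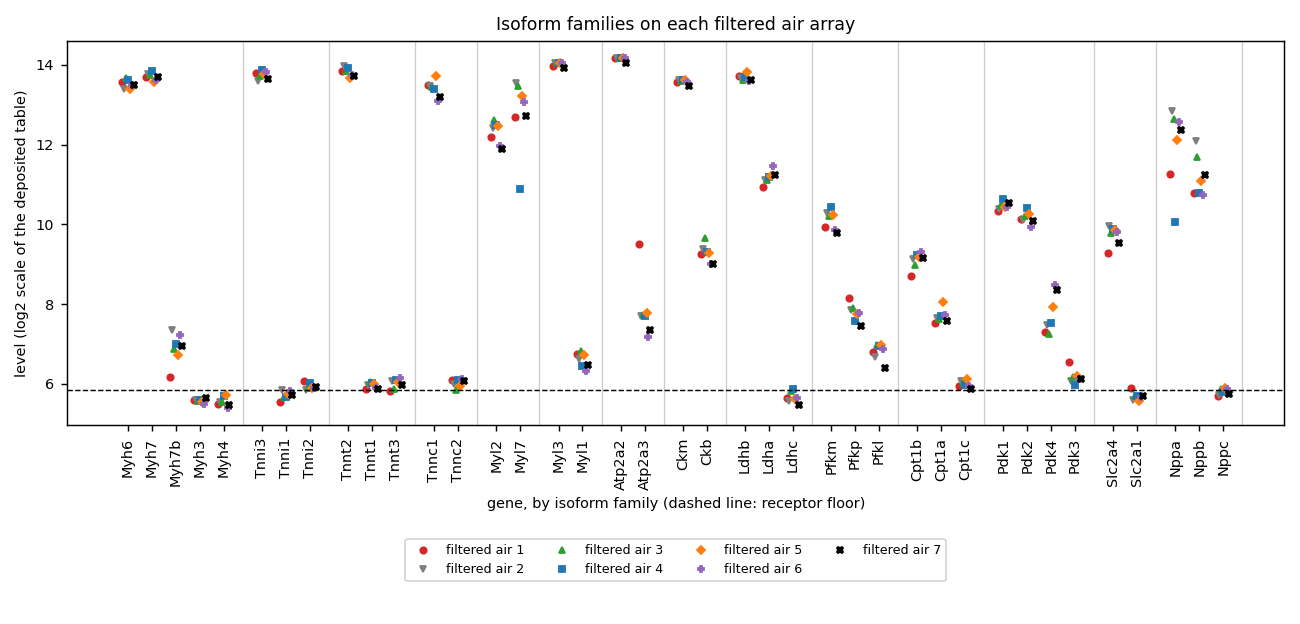
Level (vertical axis, log2 scale) of the members of 14 isoform families on each of the 7 filtered air arrays (points, 1 symbol per array), with a dashed line at the receptor floor of 5.85. The adult heart members of the troponins, Tnni3, Tnnt2 and Tnnc1, lie above 13 on every array while their skeletal muscle or fetal relatives lie near the floor, and Myl7 and Nppa are lowest on filtered air 4.

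Isoform families were read for whether a member rose above the floor and how steady it was, because the distance between 2 probes is no ratio of messages. Of 35 families listed, 26 had at least 2 measured members, and 65 of 75 measured members were above the floor. The troponins were clear-cut. Tnni3 lay at 13.75, whereas Tnni1, the fetal and slow muscle form, lay at 5.72 and Tnni2, the fast muscle form, at 5.93, next to the floor of 5.85. Tnnt2 lay at 13.82, with Tnnt1 at 5.95 and Tnnt3 at 6.01, and Tnnc1 lay at 13.40, with Tnnc2 at 6.03.

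Myosin heavy chains beside Myh6 and Myh7 were dim, with Myh7b at 6.90 ± 0.39, the embryonic Myh3 at 5.58 and the fast Myh4 at 5.55. The difference of Myh6 minus Myh7 ran from -0.38 on filtered air 2 to -0.08 on filtered air 3 with an SD of 0.101, below the median SD of a probe above the floor, though both probes were near the top of the scale, where values are compressed. Of the alpha actinins, Actn2 was bright and Actn1, at 5.72, and Actn3, at 5.68, lay below the floor. The SERCA pump Atp2a3, found in blood and lymphoid cells, had a median of 7.72 and stood at 9.52 on filtered air 1, where the T cell markers were also high. Their part in its level was not tested.

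Several metabolic families had more than 1 form above the floor. Ckm was accompanied by the brain creatine kinase Ckb at 9.27 ± 0.23, Slc25a4 by Slc25a5 at 10.95 ± 0.16, Cox8b by Cox8a at 10.85 ± 0.14, and Ldhb, the heart subunit of lactate dehydrogenase, at 13.68 ± 0.08, by the muscle subunit Ldha at 11.19 ± 0.15. The testis form Ldhc lay at 5.67, below the floor. For entry of fatty acids into mitochondria Cpt1b, the muscle form, lay at 9.10 ± 0.20 and Cpt1a, the liver form, at 7.70 ± 0.17, the latter highest on filtered air 5 at 8.06. The insulin-responsive glucose transporter Slc2a4 lay at 9.73 ± 0.24, with Slc2a1 at 5.69, below the floor. The kinases that shut off pyruvate oxidation, Pdk1 and Pdk2, lay at 10.47 and 10.16, whereas Pdk4, induced by fasting and glucocorticoids, ran from 7.25 to 8.48 around 7.52.

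Markers of other cells place the heart muscle in its tissue. Of 14 fibroblast markers 13 were above the floor and 10 in the top 10% of signals, led by the collagen chain Col1a2 at 12.08 ± 0.20, the actin-severing protein Gsn at 11.85 ± 0.40, the proteoglycan Dcn at 11.75 ± 0.37 and the intermediate filament Vim at 11.75 ± 0.18. Gsn and Vim are also made by other cells of the heart. Endothelial markers were dimmer, with 12 of 14 above the floor and 3 in the top 10% of signals, the water channel Aqp1 at 10.19 ± 0.20, Emcn at 9.89 ± 0.23 and Vwf at 8.71 ± 0.13. The list means of both were lowest on filtered air 1, at 9.29 and 7.32. The defining endothelial gene Cdh5 stood at 5.79, below the floor, and Pecam1 and Kdr had no named probe.

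Macrophage genes were present on every array, with 11 of 12 above the floor. Cd74, the invariant chain of antigen presentation, lay at 9.49 ± 0.36, and the complement genes C1qb and C1qa at 8.43 ± 0.18 and 8.19 ± 0.17. Their highest array was filtered air 1 for 7 of the 11 genes above the floor, against 20% of all probes above the floor. Cd163, a scavenger receptor of resident macrophages, varied least among those named, at 6.30 ± 0.07. Blood gave Hba-a1 and Hbb, at 13.89 and 13.69 ± 0.19, yet the red cell precursor genes Alas2, at 6.20, and Slc4a1, at 5.98, were close to the floor.

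Tissues next to the heart left little or variable signal. Of 6 lung and thyroid markers 2 were above the floor, Ager at 6.03 and Tg at 5.86, and the surfactant gene Sftpc lay at 5.54. Of all probes 46.2% were above the floor, so this count does not set them apart. Msln, which marks the mesothelium, lay at 7.95 ± 0.36. Skeletal muscle was represented by 8 of 11 genes above the floor, against 46.2% of all probes. The bright members, however, were Acta1, at 11.54 ± 0.33, and Eno3, at 10.83 ± 0.08, which the heart also uses. The fast fibre genes Pvalb, at 5.54, and Myh4 lay below the floor. Nerve markers were low, with Npy at 7.39 ± 0.33, Dbh, the enzyme of noradrenaline synthesis, at 6.17 ± 0.05, and Th, at 5.67, below the floor.

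**Figure D3:**
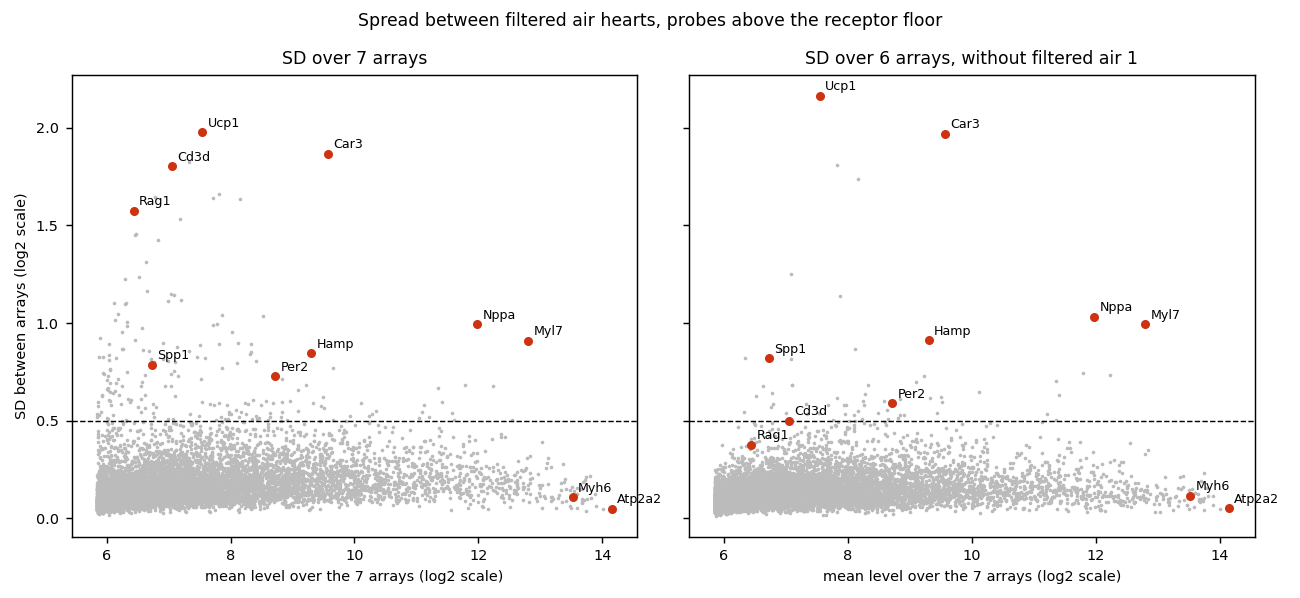
SD between arrays (vertical axis, log2 scale) against the mean level over the 7 arrays (horizontal axis, log2 scale) of each probe above the receptor floor (grey points), on the left over 7 arrays and on the right over the 6 arrays without filtered air 1, with named genes in red and a dashed line at an SD of 0.5. Of the grey points 192 lie above the line on the left and 62 on the right, where Cd3d and Rag1 drop while Ucp1, Car3, Nppa and Myl7 stay.

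Most genes hardly differed between rats. An SD over 0.5 was found for 192 of the 10261 probes above the floor (1.87%), and for 62 (0.604%) without filtered air 1, of which 58 were among the 192. Filtered air 1 was the highest array for 131 of the 192, against 20% of all probes above the floor. Of the 192 probes 179 also had a pooled SD over 0.5 within the exposed groups, and so had 50 of the 62, against 936 of all 10261 (9.12%). Among bright genes the narrowest spreads belonged, beside Atp2a2, Myl3, Atp5po and Uqcrb, to Tubb4b, a tubulin, at 11.55 ± 0.04, Atp6v1f, a subunit of the proton pump, at 9.44 ± 0.04, Mrpl22 at 9.26 ± 0.04, Ccnh at 9.28 ± 0.05, Vrk3 at 8.47 ± 0.05 and Abr at 8.32 ± 0.05. For Tubb4b the pooled SD within the exposed groups was 0.65.

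T cell and thymocyte genes set filtered air 1 apart. Of 11 markers above the floor all were highest there, against the 20% given above, and 9 had an SD over 0.5. The floor was applied to the mean over 7 arrays, filtered air 1 included, and 5 of the 11 were above it on every array. A marker that passed only through filtered air 1 was bound to be highest there. Cd3d, which pairs with the receptor of T cells, had a level of 11.01 on filtered air 1, 7.29 on filtered air 2 and 5.96 to 6.64 on the others. Rag1, the recombinase that developing lymphocytes use to assemble their receptors, had 9.92, 6.47 and 5.57 to 6.17 in the same order. Cd8a stood at 10.54 on filtered air 1 against a median of 6.46, and the kinase Lck at 9.58 against 6.07. Dntt, which adds bases during that assembly and is a gene of immature lymphocytes, stood at 7.78 against 5.79. Every one of these was high on filtered air 1, and Cd3d and Rag1 were next highest on filtered air 2. Krt8, a keratin of simple epithelia, stood at 8.53 on the same array against a median of 6.59. B cell markers were low, with 1 of 5 above the floor, against 46.2% of all probes, and Ms4a1 reached 6.17 on filtered air 1. Of cell division genes all 10 above the floor were also highest on filtered air 1, Ccnb2, a mitotic cyclin, at 8.51 against a median of 6.27. Of these 10, 3 were above the floor on every array, so the limit given for the T cell markers holds here too. Of ribosome genes 22 of 23 were highest there, and their list mean was 10.69 on filtered air 1 and 10.23 to 10.39 on the others. The next highest ribosome mean was on filtered air 5, where the mean of the T cell list was 5.90. The part of the T cell signal in the ribosome levels was not tested.

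Common reference genes were not level across the arrays. Of 13 measured, 8 were highest on filtered air 1, against 20% of all probes above the floor, and 4 were lowest there, a share near the background of 31.2%. Actb stood at 12.06 there against a median of 11.37, Eef1a1 at 12.28 against 11.57 and Ppia at 12.81 against 12.26. Sdha and Pgk1, genes of energy metabolism, were lowest there, at 10.42 and 11.07. Gusb, at 6.95 ± 0.10, and Tbp, at 6.66 ± 0.08, varied least but were dim.

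**Figure D4:**
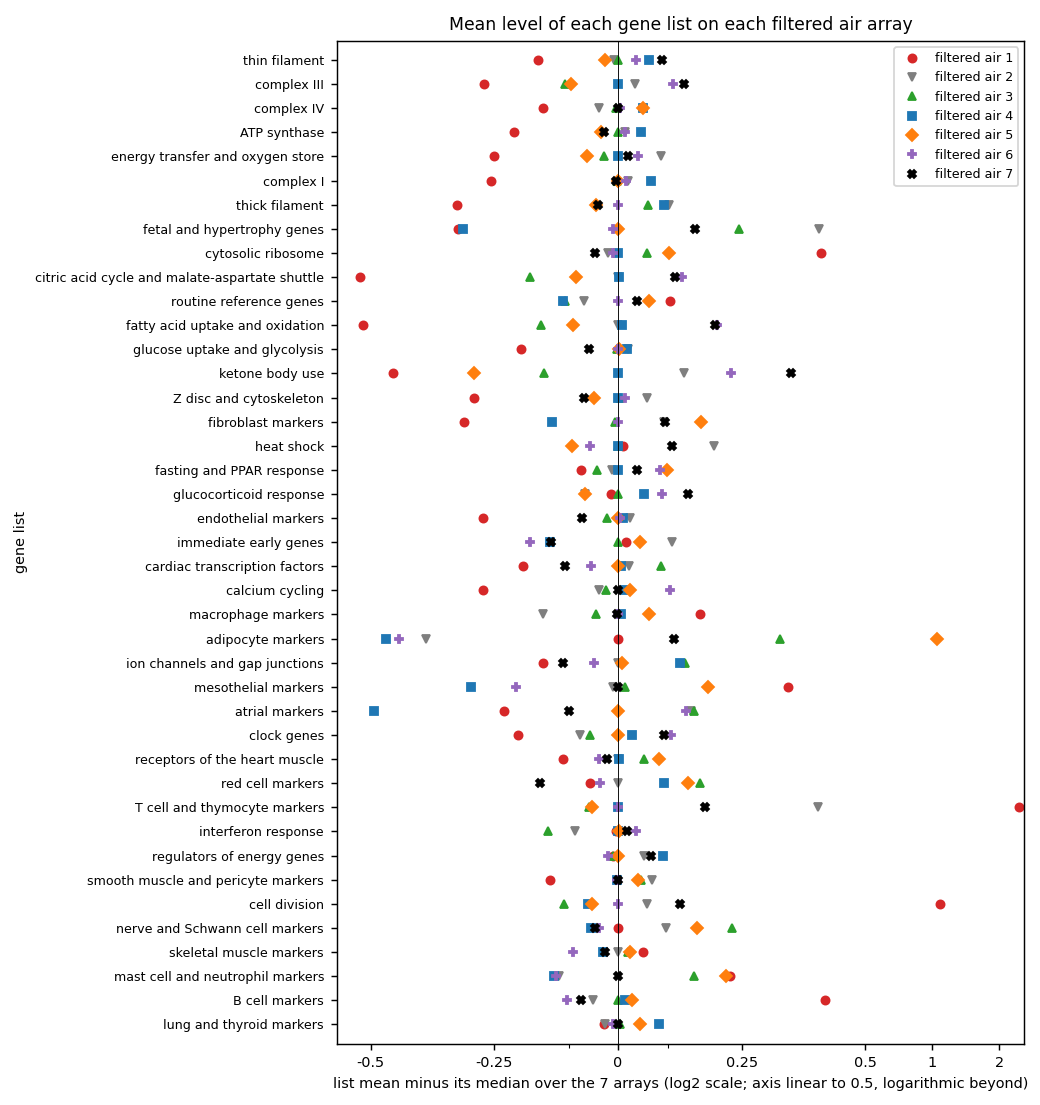
Mean level of each of 41 gene lists on each filtered air array minus its median over the 7 arrays (horizontal axis, log2 scale, linear to 0.5 and logarithmic beyond), lists ordered as in the plot of levels by list and 1 symbol per array. Filtered air 1 lies to the left for filament and energy lists and far to the right for T cell, cell division and ribosome lists, and filtered air 5 lies to the right for adipocyte markers, at a list mean of 8.14 against a median of 7.09.

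Several genes of fat had wide spreads among the other 6 hearts. Ucp1, the uncoupling protein by which brown fat makes heat, had a lowest level of 5.82, a median of 7.53 and a highest of 11.30. It was near the floor on filtered air 2, 4 and 6, at 5.99, 5.82 and 5.85, in the middle on filtered air 1, 3 and 7, at 7.53, 8.56 and 7.78, and highest on filtered air 5. Its SD was 1.98, and 2.17 without filtered air 1. Car3, a carbonic anhydrase abundant in fat, was lowest on the same 3 arrays, at 8.43, 7.14 and 7.33, and at 10.70 to 11.32 on the other 4. The same split was seen in 3 other genes of widest spread. Thrsp, a gene of lipid synthesis, was 6.68, 5.81 and 6.05 on filtered air 2, 4 and 6 and 8.19 to 10.15 on the others. Scd, the fatty acid desaturase, was 6.87, 6.32 and 6.13 against 9.09 to 9.80. Pck1, phosphoenolpyruvate carboxykinase, was 6.23, 5.95 and 6.15 against 7.10 to 9.18. The hormone gene Adipoq ran from 5.90 to 7.45 and Cfd, the secreted protein adipsin, from 8.33 to 10.09. Of 7 adipocyte markers above the floor all were highest on filtered air 5, against 13.5% of all probes above the floor, and Lep, at 5.58, was below it. Of the 7, 4 were above the floor on every array. A marker that passed only through filtered air 5 was bound to be highest there. Cidea, a marker of brown fat, shared the highest array, at 9.26, but not the low ones, since it was lowest on filtered air 7 and filtered air 1, at 8.15 and 8.18, and 8.30 to 8.41 on filtered air 2, 4 and 6. The mast cell protease Cma1 was also low on filtered air 2, 4 and 6, at 6.26, 6.04 and 6.06, and at 6.89 to 7.91 on the others.

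Nppa and Myl7 were lowest on filtered air 4. Nppa had a lowest level of 10.05, a median of 12.36 and a highest of 12.83, and Myl7 had 10.88, 13.07 and 13.54. On filtered air 4 both stood below every other array, the next lowest being filtered air 1 with 11.27 and 12.69, and both were highest on filtered air 2. Mybphl, a myosin binding protein of the atria, was lowest on filtered air 4 as well, at 5.88 against 6.93 to 7.80. Of 9 atrial markers above the floor 2, Nppa and Myl7, were lowest on filtered air 4, against 10.7% of all probes above the floor, 3 were lowest on filtered air 1 and 2 on filtered air 7, and Bmp10, Gja5 and Kcna5 did not follow. Bmp10 was highest on filtered air 6, at 6.83 against a median of 6.04, and Gja5, at 6.57 ± 0.15, and Kcna5, at 5.90 ± 0.12, stayed close to the floor. The ventricular light chain Myl2 had no such array, so the difference of Myl2 minus Myl7 was 1.61 on filtered air 4 and negative in the mean of all 7, at -0.50. Myl4 and Sln had no named probe. Nppb, the natriuretic peptide that the stretched ventricle also makes, followed another order, with 12.10 on filtered air 2, 11.70 on filtered air 3 and 10.73 to 11.25 on the others. Epha4, a receptor tyrosine kinase, was likewise high on filtered air 2 and 3, at 9.06 and 9.04, and lowest on filtered air 4, at 7.44.

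**Figure D5:**
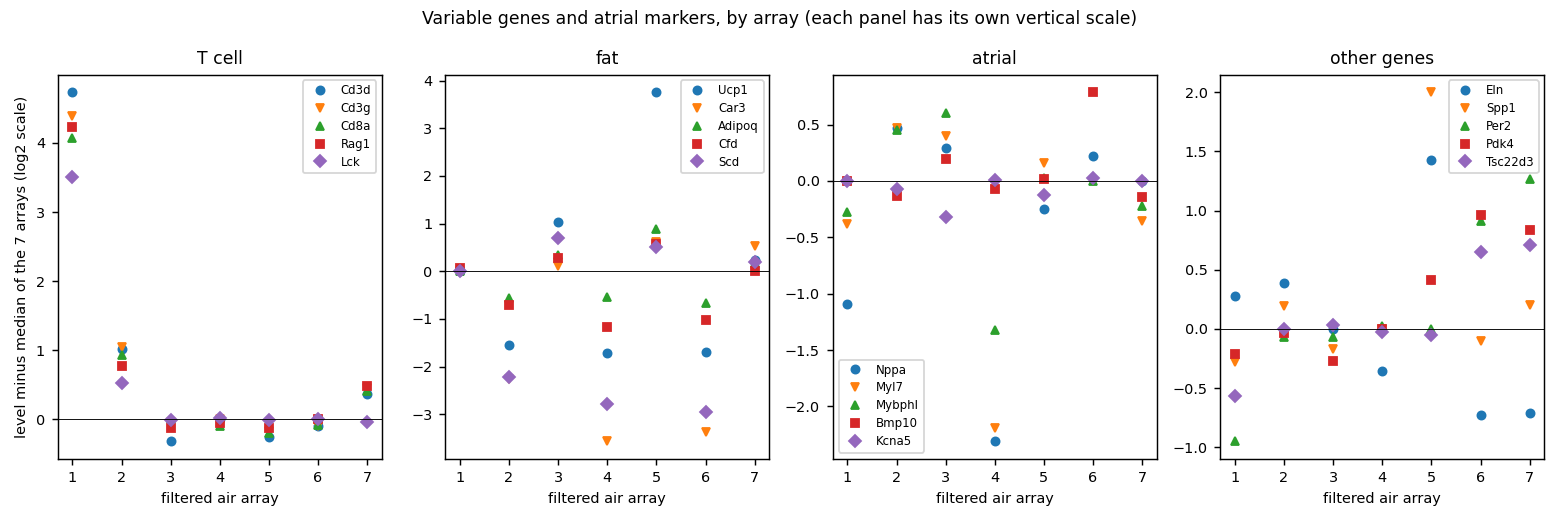
Level minus the median of the 7 arrays (vertical axis, log2 scale, with its own range in each panel) of 5 genes per panel on each filtered air array (horizontal axis, by number). The 5 T cell genes drawn are high on filtered air 1, the 5 fat genes drawn are low on filtered air 2, 4 and 6, Nppa, Myl7 and Mybphl are low on filtered air 4, Eln and Spp1 are high on filtered air 5, and Per2, Pdk4 and Tsc22d3 are high on filtered air 6 and 7.

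Filtered air 6 and 7 shared high levels of a few genes, which were picked out after their values were seen. Per2, a repressor of the circadian clock, had a lowest level of 7.61, a median of 8.56 and a highest of 9.82, and stood at 9.47 on filtered air 6 and 9.82 on filtered air 7, above the other 5 arrays. Pdk4 stood at 8.48 and 8.36 on these arrays and at 7.25 to 7.94 on the others. Tsc22d3, a glucocorticoid-induced gene, stood at 10.40 and 10.46 on the same pair and was lowest on filtered air 1, at 9.19. The splicing-related gene Rsrp1 was 10.68 and 10.90 on this pair and 9.27 to 10.42 elsewhere. They are also the arrays with the highest means of the fatty acid and citric acid cycle lists. Of 9 clock genes above the floor, Per2 included, 3 were highest on filtered air 7 and 2 on filtered air 6, against the 17.3% and 15.4% given above. The mean of the clock list was 6.93 on filtered air 6, 6.92 on filtered air 7 and 6.62 to 6.85 on the others. Per2, picked for its level on this pair, is 1 of the 13 genes in that mean. The mean without Per2 was not computed. Nr1d1, another repressor of the clock, was lowest on filtered air 7, at 6.92, and highest on filtered air 5, at 8.19, and Bmal1 and Clock lay below the floor, at 5.75 and 5.64. The labels give no time of day for the collection of the hearts.

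Eln, Spp1, Actg2 and Ccn3, which form no fixed list, were highest on filtered air 5. Eln, elastin, stood at 8.47 there and at 6.32 to 7.43 on the others, and Spp1, osteopontin, at 8.47 against 6.19 to 6.66. The smooth muscle actin Actg2 was highest on the same array, at 8.78, with a median of 8.04, and so was the matrix protein Ccn3, at 9.38, with a lowest level of 6.86 on filtered air 4. The list mean of fibroblast markers was also highest on filtered air 5, at 9.77. That of smooth muscle and pericytes was highest on filtered air 2, at 6.95. The mean of adipocyte markers was highest on filtered air 5 too, and their part in these levels was not tested.

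Among the remaining variable genes, Hamp, the iron-regulating hormone hepcidin, had a lowest level of 7.92 on filtered air 7, a median of 9.24 and a highest of 10.51 on filtered air 6. Nfkbia, the inhibitor of NF-kappa-B, stood at 10.16 on filtered air 4 and 9.71 on filtered air 6, and at 8.25 to 9.28 on the others. Its pooled SD within the exposed groups was 0.30, against 0.66 here. Immediate early genes, which rise within minutes of stress or handling, were present, with 16 of 17 above the floor. Of these 16, 0 had an SD over 0.5, against 1.87% of all probes above the floor, so the count does not set them apart. Dusp1 lay at 11.23 ± 0.20 and Egr1 at 7.47 ± 0.44, and Fos stood at 6.04 to 6.79. Interferon response genes had a median level of 6.16, with 8 of 11 above the floor, against 46.2% of all probes. Of the 11, 1 was in the top 10% of signals, Ifi27 at 10.66 ± 0.13.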

How the data were processed

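Total RNA from hearts was measured on Illumina rat bead arrays, 1 per rat. Per the labels, 32 arrays were hybridised, the authors removed 5 with poor signal, and lumi was run with default settings. Its version was 1.5.17 per the submitters' processing notes. The deposited values have the range of a log2 scale, and their sorted values differ by at most 0.0185 between arrays. A variance stabilizing step, which would compress dim signals, is neither stated nor excluded by the sources used here. All 27 columns matched a sample. No detection p-values or bead counts were analysed here, and precision is limited by the number of arrays.

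Of 22226 probes 13192 had a symbol in the platform annotation, 13151 of which were matched by gene identifier to RefSeq, and the other 9034 were counted but not named. The probe with the highest mean stood for a gene. Means, SDs and ranks were computed with pandas 2.3.3 and numpy 2.4.6 under Python 3.11.15, with no further normalization and no test of a difference between groups, since none are compared. List means and named genes were examined for 1 array apart with Dixon's criterion. The spread and floor counts were tested on simulated data. The members, the 41 lists, with 474 of 608 genes measured, and the 35 families were chosen with earlier results of these data known. Named were, by rule, the 20 brightest probes, the 20 genes of widest spread with and without filtered air 1, the 10 of narrowest spread in the top 10% of signals, up to 4 brightest and 2 most variable members of each list, family members and cell type markers. List members given for other reasons, such as Acadm or Synpo2l, were chosen after their values were seen. Alternatives were other floors, measures of spread and centring, 1 array left out, and all probes of a gene.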

Additional observations from a re-analysis of the deposited data

Results flagged for a closer look

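In each of 41 list means and 112 named genes above the floor, the highest or lowest of the 7 arrays was examined for a gap to its neighbour larger than the 95% critical share of the whole range (Dixon). Chance marks about 1 in 20 groups of values. That rate does not hold for genes named for their wide spread over these arrays, which were chosen for the pattern examined. Nor does it hold for the 41 lists, which were chosen with earlier results of these data known and share the same 7 arrays. A gap of this size was found in 12 list means and 23 genes, and 15 of the genes were high on filtered air 1. The 112 genes are only a part of the 295 named by rule, and some genes outside the 112 had such a gap too. On filtered air 1 Ankrd1, Acadl, Gsn and Slc25a3 were low in this way, Ankrd1 at 12.19 against 12.97 to 13.35. Rps18 and Rps4x were high there, Rps18 at 13.13 against 12.43 to 12.63. The genes given below are thus no full account of that array.

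Filtered air 1 was low in the mean of the thick filament (10.61), the Z disc and cytoskeleton (9.75), calcium cycling (7.91), glucose uptake and glycolysis (9.67), complex I (10.86), ATP synthase (11.86), endothelial markers (7.32) and smooth muscle and pericyte markers (6.75). It was high in the mean of T cell and thymocyte markers (8.40), B cell markers (6.31), cell division (7.29) and the cytosolic ribosome (10.69).

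Genes high on filtered air 1 were Cd3g (11.32), Cd3d (11.01), Coro1a (10.81), Cd8a (10.54), Ptprcap (10.01), Rag1 (9.92), Rhoh (9.60), Lck (9.58), Atp2a3 (9.52), Lat (9.29), Cd247 (9.27), Ceacam4 (8.59), Cd8b (8.53), Lag3 (8.42) and Pdk3 (6.55). Most encode parts of lymphocytes, such as the T cell receptor complex and its signalling proteins. Gja4, the connexin of arterial endothelium, was low on the same array (7.66), as was Atp5f1b (13.32).

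Other arrays stood out for fewer genes. Tpm1 was low on filtered air 2 (13.30) and Myl7 on filtered air 4 (10.88), and Tpm4 (9.26), Cpt1a (8.06) and Spp1 (8.47) were high on filtered air 5. What sets these values apart was not tested. Atp2a2 was marked on filtered air 7 (14.04) because it sat at the highest value of the table on the other 6 arrays and at the next value down on this one, where Lpl ranked first, so its mark follows from the ceiling.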

How the results depend on the processing

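No paired analysis was possible because no groups are compared. Of the 100 brightest probes, 97 to 99 were shared when 1 array was left out, 99 with medians in place of means, and 100 with arrays centred on the 75th percentile or with the 11657 probes brightest over all arrays. The count above the floor was 10261, ran from 10255 to 10352 with 1 array left out, and was 7009 with the floor at the 99th percentile, 10919 with a floor from median absolute deviations and 8434 when every array had to be above it. The count of probes with an SD over 0.5 was 192 and ran from 62 to 236 with 1 array left out. The 62 is without filtered air 1, and leaving out any other array gave at least 189. With a scaled median absolute deviation in place of the SD it was 118, with all probes 196 and with centring 192. With an SD over 0.4 it was 389 and over 0.6 it was 115, limits chosen after seeing the data. With all probes of a gene in place of the brightest, 0 of 41 list means moved by more than their SD between arrays. The 13192 named probes cover 12978 genes, so most genes have 1 probe and cannot change under this alternative. Leaving out 1 of 7 arrays cannot move a mean by its SD, so for list means and differences within families that alternative shows nothing about stability. Signals at the top of the scale are bounded by the normalization and those near the floor may be compressed, which limits their spread.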
